A study of Homo sapiens with 5 samples.

Results

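Sterol and fatty acid synthesis genes were followed in LNCaP, a human prostate cancer line that responds to androgen, treated for 6 h with 1.25 µM celastrol, a triterpenoid from thunder god vine, or for 6 h with its solvent DMSO. The members were 35 genes listed by name: 19 sterol and isoprenoid enzymes, 6 genes of SREBP control and sterol transport, and 10 fatty acid genes. An array probe set that names the gene alone was found for 32 of them, among 12165 genes measured so, and where a gene had several the brightest was used. FDFT1, HSD17B7 and ACSL3 had none and enter no count of levels or changes, although promoters of HSD17B7 and ACSL3 are counted below. There were 2 celastrol arrays and 3 DMSO arrays, called biological replicates in their labels. With nothing said of separate cultures, p-values measure the spread between these arrays, which may be technical, and the number of arrays limits the precision. By their labels all arrays come from LNCaP cells, with no genotype or further agent between the groups. Every level below is log2(intensity + 1). A change is the celastrol mean minus the mean of DMSO replicates 1 and 2 in those units, so that for dim genes it comes out too small.

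DMSO replicate 3 is given apart, because its profile did not match its label. Of 9 measured luminal prostate markers all 9 lay more than 2-fold below DMSO replicates 1 and 2, with a median level of 4.56 on it, against 9.67 to 9.76 on the other 4 arrays. Of 11 measured leukocyte markers all 11 were over 2-fold higher on it, with a median level of 10.9, against 4.22 to 4.40 elsewhere. On the celastrol arrays and DMSO replicates 1 and 2 the B cell markers MS4A1 and CD79A lay between 4.19 and 4.52. Its correlation with the other arrays was 0.843 to 0.844, whereas those 4 correlated at 0.994 to 0.998. Total intensity was between 4939397 and 5348496 per array. In RNA of whole cultures, fewer cells of a type and less RNA per cell cannot be told apart.

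Cells build cholesterol from acetyl-CoA through mevalonate, farnesyl pyrophosphate, squalene and lanosterol, and build fatty acids from the same acetyl-CoA. Both routes are switched on by SREBP transcription factors, which lie in the endoplasmic reticulum membrane bound to SCAP. When sterols are plentiful INSIG proteins hold SCAP there, and when they are scarce SCAP escorts SREBP to the Golgi apparatus, where proteases release its active part. The product of SREBF2 acts mainly on sterol genes, products of SREBF1 more on fatty acid genes, and INSIG1 is itself a target, which closes a feedback loop. In prostate cancer cells lipid synthesis genes are also known to respond to androgen.

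The promoters of 5 members are shown because 3 of them belong to genes that rose with celastrol (INSIG1, MSMO1 and LPIN1), HMGCS1 stood next among the sterol enzymes, and SREBF2 encodes the factor most tied to that arm. Each is 300 bases, 250 before the start of the gene and 50 after it, from RefSeq (GRCh38.p14), written in the direction of the gene. HMGCS1 has 2 such windows and LPIN1 has 3, of which 1 each is printed. The LPIN1 window was picked out of listed order, and it alone of the 3 holds a match to the letters marked below. Capitals mark matches on either strand to CCAAT (the NF-Y box, which reads ATTGG on the other strand), CACGTG (an E-box), TCACNCCAC (the core of the sterol regulatory element bound by SREBP) and TGACNNNGC (the core of the antioxidant response element).
INSIG1 promoter, chr7:155297628-155297927, plus strand: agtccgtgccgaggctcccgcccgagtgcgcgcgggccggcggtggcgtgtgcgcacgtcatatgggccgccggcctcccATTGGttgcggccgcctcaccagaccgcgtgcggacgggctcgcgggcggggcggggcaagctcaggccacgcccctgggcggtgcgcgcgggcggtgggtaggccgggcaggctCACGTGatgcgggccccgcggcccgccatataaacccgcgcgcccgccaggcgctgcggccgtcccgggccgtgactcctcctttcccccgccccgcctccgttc
MSMO1 promoter, chr4:165327419-165327718, plus strand: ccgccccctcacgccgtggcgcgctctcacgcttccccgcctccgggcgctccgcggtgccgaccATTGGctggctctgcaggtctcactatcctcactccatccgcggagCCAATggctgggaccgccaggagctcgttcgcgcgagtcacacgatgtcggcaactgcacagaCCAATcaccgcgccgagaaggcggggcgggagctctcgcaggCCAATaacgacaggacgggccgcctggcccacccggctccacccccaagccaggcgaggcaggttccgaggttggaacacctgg
HMGCS1 promoter, chr5:43313363-43313662, minus strand: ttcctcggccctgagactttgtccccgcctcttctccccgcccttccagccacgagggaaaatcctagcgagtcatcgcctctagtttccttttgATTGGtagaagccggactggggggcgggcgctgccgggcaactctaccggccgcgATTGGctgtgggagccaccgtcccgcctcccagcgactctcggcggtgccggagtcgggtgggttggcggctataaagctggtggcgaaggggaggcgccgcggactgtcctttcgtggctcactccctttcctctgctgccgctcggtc
SREBF2 promoter, chr22:41832855-41833154, plus strand: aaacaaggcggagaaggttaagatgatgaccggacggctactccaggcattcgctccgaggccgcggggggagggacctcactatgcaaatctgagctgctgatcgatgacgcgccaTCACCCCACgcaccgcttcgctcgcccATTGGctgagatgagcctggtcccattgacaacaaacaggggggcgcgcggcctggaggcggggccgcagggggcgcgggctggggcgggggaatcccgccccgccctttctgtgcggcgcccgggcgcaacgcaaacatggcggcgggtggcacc
LPIN1 promoter, chr2:11677294-11677593, plus strand: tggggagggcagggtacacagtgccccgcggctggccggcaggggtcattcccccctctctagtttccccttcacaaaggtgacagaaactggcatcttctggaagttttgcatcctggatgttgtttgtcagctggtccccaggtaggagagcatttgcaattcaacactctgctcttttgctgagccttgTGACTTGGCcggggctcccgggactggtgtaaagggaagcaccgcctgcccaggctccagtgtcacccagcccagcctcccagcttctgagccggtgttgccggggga

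RefSeq windows were matched for 31 of the 35 listed genes. NF-Y letters, which bind a factor that works beside SREBP, lay in a window of 14 of 16 sterol enzymes, CYP51A1 and PMVK being those without, in 6 of 9 fatty acid genes, and in INSIG1 and SREBF2 among the 6 control genes. Among all RefSeq genes with a window 39.7% had them, and genes with several windows have more room for a match. MSMO1 holds 4 NF-Y matches, which start at -185, -139, -76 and -34 (bases relative to the start of the gene), and the printed window of HMGCS1 holds 2. INSIG1 holds 1, together with an E-box at -55. E-box letters were found in 4 members, INSIG1, LSS, SC5D and SCAP (8.77% of all genes). The sterol element core, found in 1.39% of all genes, was present in SREBF2 (at -133) and in 1 of 5 windows of ACSL1. None of the 3 LPIN1 windows holds the NF-Y, E-box or sterol element letters, and the printed one holds an antioxidant element core at -58, as do windows of HMGCS1, ACSL1, EBP and INSIG2. That core was found in 16.1% of all genes. In ACSL1 it overlaps the sterol element core, which starts at -242, and in the printed windows no marked matches overlap. GAANNTTC, a heat shock element pair, was found in GGPS1 (8.21% of all genes), and TGATGNAA, a C/EBP and ATF core, in 0 members (4.46% of all genes). A match is a description and no evidence of binding, and its absence says only that these letters are not in these windows.

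INSIG1, MSMO1 and LPIN1 rose with celastrol, and 4 further members stood at least 0.5 higher without passing the test: HMGCS1, IDI1, SQLE and ACSL1. No member fell past the threshold. By limma on the 4 arrays, after a filter that removed the dimmest 40% of the array and Benjamini-Hochberg adjustment at 0.05, 3 of the 31 members kept rose and 0 fell, against 0.58% of the 8108 genes kept that rose and 0.481% that fell (1.06% in either direction). At an unadjusted p under 0.05, 16 members were higher, against 7.7% of genes kept, and 1 was lower, against 12.4%. Of all 32 measured members 25 had a change above 0, against 48.2% of all 12165 genes and 42.7% of genes kept, and 19 had both celastrol arrays above both DMSO arrays while 4 had them below. All of the 19 and the 4 were kept by the filter, where 16.4% of genes lay above and 26.5% below. The median change was 0.18 over members and -0.02 over all genes kept. The 3 calls depend on the filter: with none, 2 of 12165 genes (0.0164%) passed and 0 members did, the adjusted p of INSIG1, MSMO1 and LPIN1 being 0.0622 each, while 16 members were higher and 1 lower at an unadjusted p under 0.05, against 15% of all genes in either direction. With any 1 of the 4 arrays removed, limma called 0 of the 8108 genes. Such a fit has 1 array in an arm, which is assumed to vary like the other arm, so it says little about these 3 genes. In these fits 10 to 14 members were higher and 0 to 2 lower at an unadjusted p under 0.05, against 20.9% to 22.7% of genes in either direction.

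**Figure D1:**
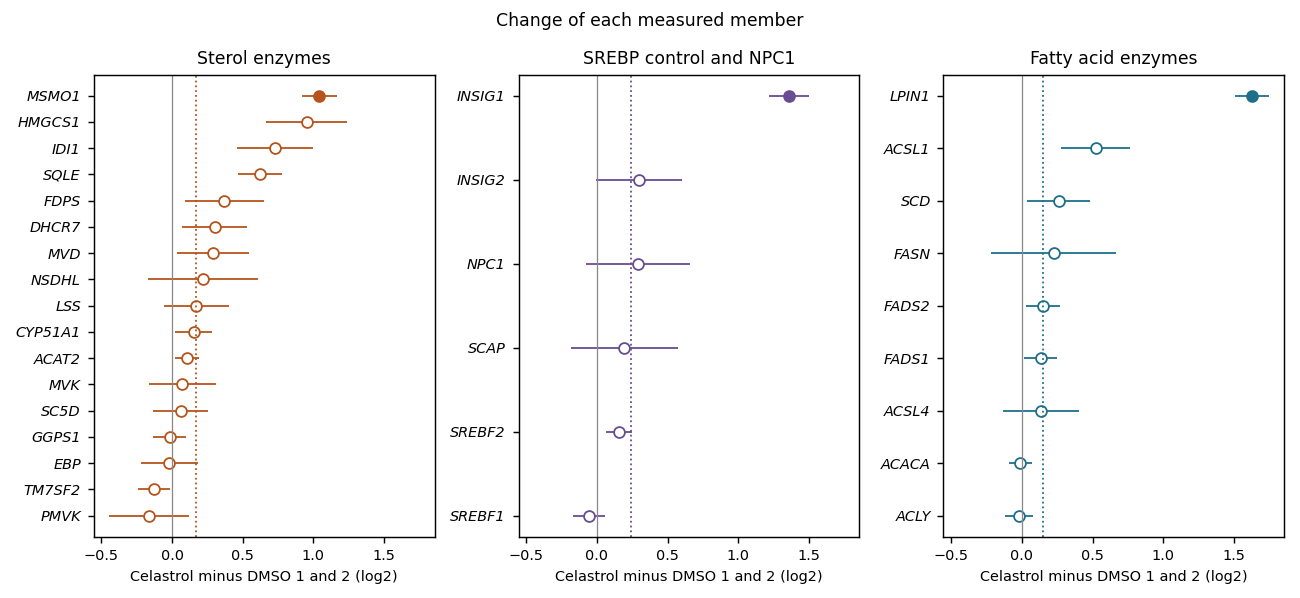
Change of each measured member, celastrol minus the mean of DMSO replicates 1 and 2 (log2, horizontal axis), for sterol enzymes, SREBP control genes with NPC1, and fatty acid genes. Points are limma estimates with 95% confidence intervals, filled where the adjusted p was under 0.05, and dotted lines are the medians of each panel (0.17, 0.24 and 0.15); ACSL4, removed by the filter, has its interval from the unfiltered fit. MSMO1, INSIG1 and LPIN1 are the filled points, at 1.04, 1.36 and 1.63.

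INSIG1, the sterol sensor that retains SCAP, stood at 9.59 and 9.56 with celastrol, against 8.17 and 8.26 on DMSO replicates 1 and 2. On this probe set every celastrol value lay above every DMSO value, DMSO replicate 3 included, which stood at 9.05. On a dimmer probe set of INSIG1, DMSO replicate 3 stood at 8.2135, between the celastrol values of 8.212 and 8.324. INSIG1 averaged 9.58 ± 0.0225 with celastrol and 8.22 ± 0.0634 with DMSO (SD, n = 2 each), a rise of 1.36 (SE 0.046, limma adjusted p = 0.03, n = 2 each), or 2.57-fold, the 19th largest rise among the 8108 genes. INSIG2, its paralog with the same retaining role, stood at 8.28 and 8.11 with celastrol, against 7.81 and 7.98 with DMSO. These groups did not overlap either, but the change was 0.30 with a 95% interval of -0.01 to 0.60 (adjusted p = 0.275 in limma). The intervals of the paralogs, 1.22 to 1.5 for INSIG1 and -0.01 to 0.60 for INSIG2, are apart, although the difference between them was not itself tested.

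SREBF1 and SREBF2, which encode the SREBP factors themselves, had changes of 0.16 or less in size on the probe sets used. SREBF2 stood at 6.99 and 7.02 with celastrol, against 6.86 and 6.84 with DMSO, a change of 0.16 (95% interval 0.07 to 0.25) that did not pass after adjustment (limma adjusted p = 0.137). A dimmer probe set of SREBF2 had a change of 0.23 (adjusted p = 0.246 in limma), with both celastrol arrays above DMSO replicates 1 and 2. SREBF1 had the same value, 8.56, on both celastrol arrays, against 8.59 and 8.65 with DMSO, a change of -0.06 (95% interval -0.17 to 0.06). SCAP, the escort, stood at 6.72 and 7.01 with celastrol, against 6.62 and 6.72 with DMSO. Its groups touched at 6.72, and the change of 0.19 had an interval of -0.19 to 0.57. NPC1, which moves cholesterol out of lysosomes, stood at 8.16 and 7.89 with celastrol, against 7.79 and 7.68 with DMSO. Its groups did not overlap, but the change of 0.29 had an interval of -0.08 to 0.66.

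**Figure D2:**
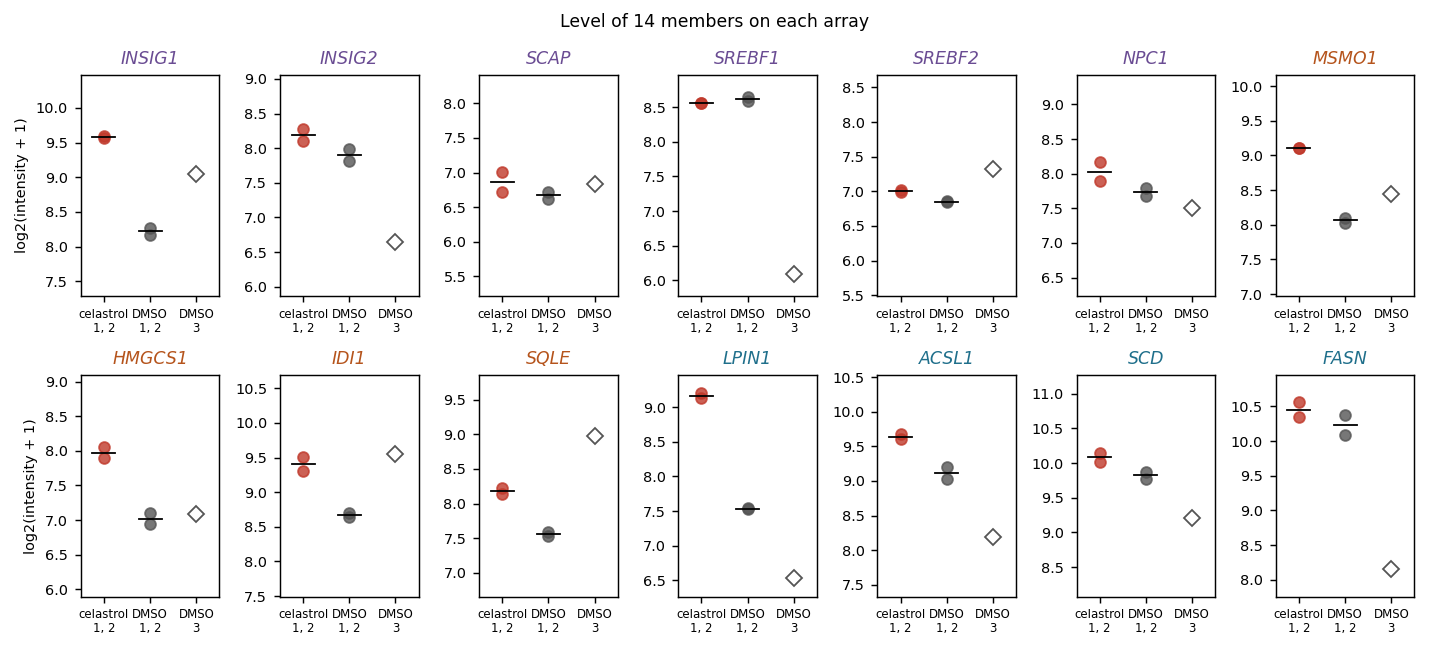
Level of 14 members on each array in log2(intensity + 1), with celastrol replicates 1 and 2 (red), DMSO replicates 1 and 2 (grey) and DMSO replicate 3 (open diamond); bars are group means, and each panel spans 3.2 on the log2 scale around its own range. Celastrol points of INSIG1, INSIG2, NPC1, MSMO1, HMGCS1, LPIN1, ACSL1 and SCD lie above all DMSO points. For SQLE, IDI1 and SREBF2 DMSO replicate 3 lies above the celastrol points.

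Among the enzymes that make and use mevalonate, HMGCS1 and IDI1 had the larger changes. HMGCS1, the cytosolic synthase that condenses acetoacetyl-CoA with acetyl-CoA, stood at 8.05 and 7.90 with celastrol, against 6.94 and 7.10 with DMSO. The groups were well apart, with a change of 0.95 (SE 0.0932) and a limma adjusted p of 0.07. IDI1, which interconverts the isoprenoid building blocks, stood at 9.50 and 9.30 with celastrol, against 8.71 and 8.64 with DMSO. Its change was 0.73 (SE 0.0861, adjusted p = 0.0827 in limma), again with no overlap. FDPS, which makes farnesyl pyrophosphate, had a change of 0.37, and MVD, which decarboxylates mevalonate pyrophosphate, 0.29, each with both celastrol arrays above both DMSO arrays. ACAT2, the thiolase of the first step, had 0.11 and the mevalonate kinase MVK 0.07. PMVK, the next kinase, was at 7.98 and 7.77 with celastrol, against 8.02 and 8.06 with DMSO, a change of -0.16 (95% interval -0.45 to 0.12). GGPS1, which takes the isoprenoid branch to geranylgeranyl pyrophosphate, had a change of -0.02 (95% interval -0.14 to 0.10).

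Past squalene, 1 enzyme passed the test. MSMO1, the C4-methyl sterol oxidase, stood at 9.11 and 9.10 with celastrol, against 8.03 and 8.10 with DMSO. It averaged 9.11 ± 0.00553 with celastrol and 8.07 ± 0.0543 with DMSO (SD, n = 2 each), a rise of 1.04 (SE 0.0403, limma adjusted p = 0.0339, n = 2 each), or 2.06-fold. SQLE, the squalene epoxidase, stood at 8.23 and 8.13 with celastrol, against 7.58 and 7.53 with DMSO. Its change of 0.62 (SE 0.0494) missed the threshold at an adjusted p of 0.0583 in limma. DHCR7, which makes cholesterol in the last step, had 0.30, NSDHL 0.22, LSS, the lanosterol synthase, 0.17 and CYP51A1, the lanosterol demethylase, 0.15. SC5D, the lathosterol oxidase, had 0.06, the sterol isomerase EBP -0.02 and the sterol reductase TM7SF2 -0.13. NSDHL works in the same C4-demethylation as MSMO1, and its interval of -0.17 to 0.61 lies below that of MSMO1, 0.92 to 1.17. The difference between these enzymes was not tested.

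The fatty acid arm had its largest changes in LPIN1 and ACSL1, while those of ACLY, ACACA and FASN, which build the chain, ran from -0.02 to 0.22. LPIN1 encodes lipin, a phosphatidate phosphatase that feeds triglyceride and phospholipid synthesis. It stood at 9.20 and 9.13 with celastrol, against 7.54 and 7.53 with DMSO, the widest separation of any member. LPIN1 averaged 9.16 ± 0.0492 with celastrol and 7.54 ± 0.0122 with DMSO (SD, n = 2 each), a rise of 1.63 (SE 0.0387, limma adjusted p = 0.03, n = 2 each). This is 3.09-fold and the 15th largest rise among the 8108 genes. ACSL1, which activates long-chain fatty acids by joining them to CoA, stood at 9.68 and 9.60 with celastrol, against 9.03 and 9.20 with DMSO. Its groups did not overlap, and its change was 0.52 (SE 0.0791, adjusted p = 0.108 in limma).

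ACLY, which supplies cytosolic acetyl-CoA, and ACACA, which carboxylates it to malonyl-CoA, had changes of -0.02 (95% interval -0.12 to 0.08) and -0.01 (95% interval -0.09 to 0.07). These are the narrowest intervals of the arm, and neither reaches a shift of 0.5 in either direction. FASN, the synthase, stood at 10.56 and 10.34 with celastrol, against 10.37 and 10.09 with DMSO. Its groups overlapped, and its change of 0.22 had a wide interval, -0.22 to 0.67. SCD, which adds the first double bond, stood at 10.15 and 10.02 with celastrol, against 9.77 and 9.88 with DMSO. Its celastrol values were the higher ones, with a change of 0.26 and an adjusted p of 0.218 in limma. The desaturases FADS1 and FADS2 had 0.13 and 0.15. ACSL4, which prefers arachidonic acid, was near the floor at 3.89 and 4.07 with celastrol, against 3.89 and 3.81 with DMSO, and did not pass the filter.

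By their medians the arms did not separate. The median change was 0.17 over 17 sterol enzymes and 0.15 over 9 fatty acid genes, a difference of 0.024. A related measure is the difference between arm medians of gene-centred levels, taken array by array. Its pooled SD between replicate arrays was 0.0234. The difference of the median changes was -0.0115 without celastrol replicate 2, -0.00933 without DMSO replicate 1 and 0.0456 without DMSO replicate 2. Changes of at least 0.5 were found for 4 of 17 sterol enzymes, 1 of 6 control genes and 2 of 9 fatty acid genes, against 1.68% of all genes kept. Changes of -0.5 or below were found for 0 members, against 1.97% of genes kept. Both celastrol arrays lay above both DMSO arrays for 10 sterol enzymes and 5 fatty acid genes, and below for 2 and 1, against 16.4% above and 26.5% below among genes kept. In each arm a few genes stood far from the rest. The quartiles were 0.06 and 0.37 for sterol enzymes and 0.13 and 0.26 for fatty acid genes.

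Of the measured members 21 had more than 1 probe set, and for 16 of these all probe sets had changes of the same sign. Probe sets of a gene share the same arrays and are not replicates. LPIN1 was higher on its 3 probe sets, by 1.63, 1.70 and 1.40, and 2 of these passed the test. INSIG1 was higher on all 3, by 1.36, 1.46 and 1.47, and 1 passed. HMGCS1 had 0.95 and 0.58, IDI1 0.73 and 0.78, and ACSL1 0.52 and 0.66. SQLE had 0.62 and 0.77, and 0.22 on a dim one. SCD split into a pair at 0.26 and 0.25 and a pair at -0.04 and -0.02, so its direction depends on the probe set. EBP likewise had -0.02, 0.23 and -0.13. GGPS1 had -0.02 and 0.23, ACLY had -0.02, -0.02 and 0.07, and NPC1 had 0.29 and, on a dim probe set, 0. CYP51A1 reached 0.40 and FADS1 0.40 on probe sets other than their brightest. MSMO1 has a single probe set, so its rise rests on that one.

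**Figure D3:**
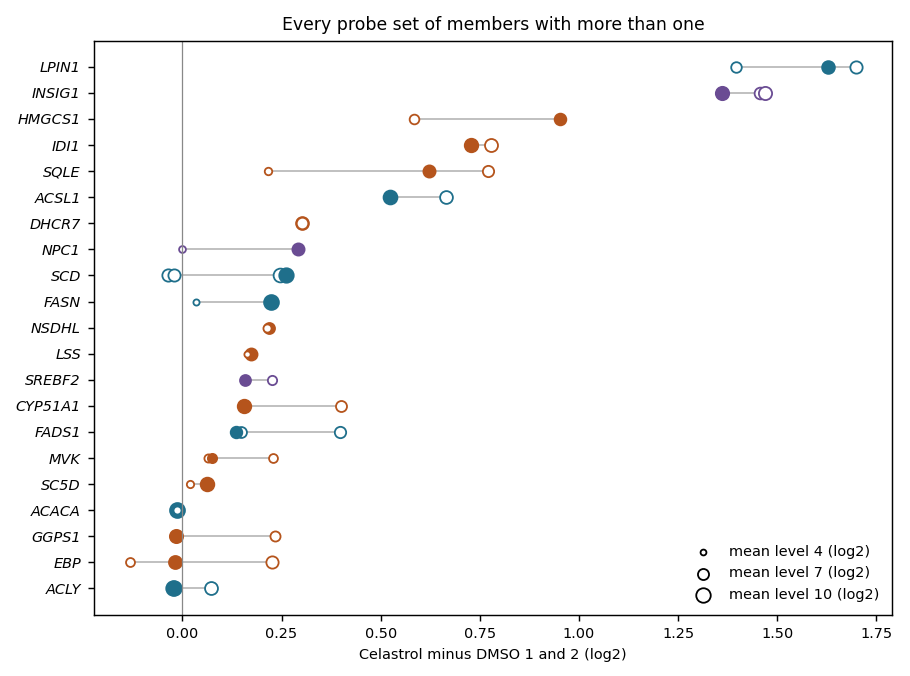
Change of every probe set (log2, horizontal axis) for the 21 members that have more than 1, ordered by the change of the probe set used for the gene (filled); open circles are the others, circle area grows with the mean level on the 4 arrays, and colours are those of the arms (sterol orange, control purple, fatty acid blue). LPIN1 and INSIG1 are higher on all their probe sets, and the 4 of SCD split around 0.

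On DMSO replicate 3, the array with leukocyte markers, the members' median offset was 0.38 for sterol enzymes and -0.62 for fatty acid genes. Against the mean of DMSO replicates 1 and 2, ACAT2 was higher on it by 1.53, FDPS by 1.43 and SQLE by 1.42, while TM7SF2 differed by -3.79, SREBF1 by -2.53, FASN by -2.08, ACACA by -1.92, GGPS1 by -1.76 and INSIG2 by -1.25. Over all genes 8.65% were over 2-fold higher on it and 12% over 2-fold lower. Among the 8108 genes kept by the filter these were 953 and 1459, and among the 32 measured members 3 and 6. With this array in the DMSO group 0 of 8108 genes (0%) were called by limma, and 252 genes, 5 higher members among them, had an unadjusted p under 0.05. In that fit the median change was 0.15 for the sterol arm and 0.47 for the fatty acid arm. The changes of INSIG1, MSMO1, HMGCS1 and LPIN1 were then 1.08, 0.91, 0.93 and 1.96, and that of SQLE was 0.15. The dimmer probe set of HMGCS1 stood at 6.48 and 6.18 with celastrol, against 5.74 and 5.74 on DMSO replicates 1 and 2 and 7.46 on DMSO replicate 3, and its change on all 5 arrays was 0.00988. The part of leukocyte RNA in these offsets was not tested.

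**Figure D4:**
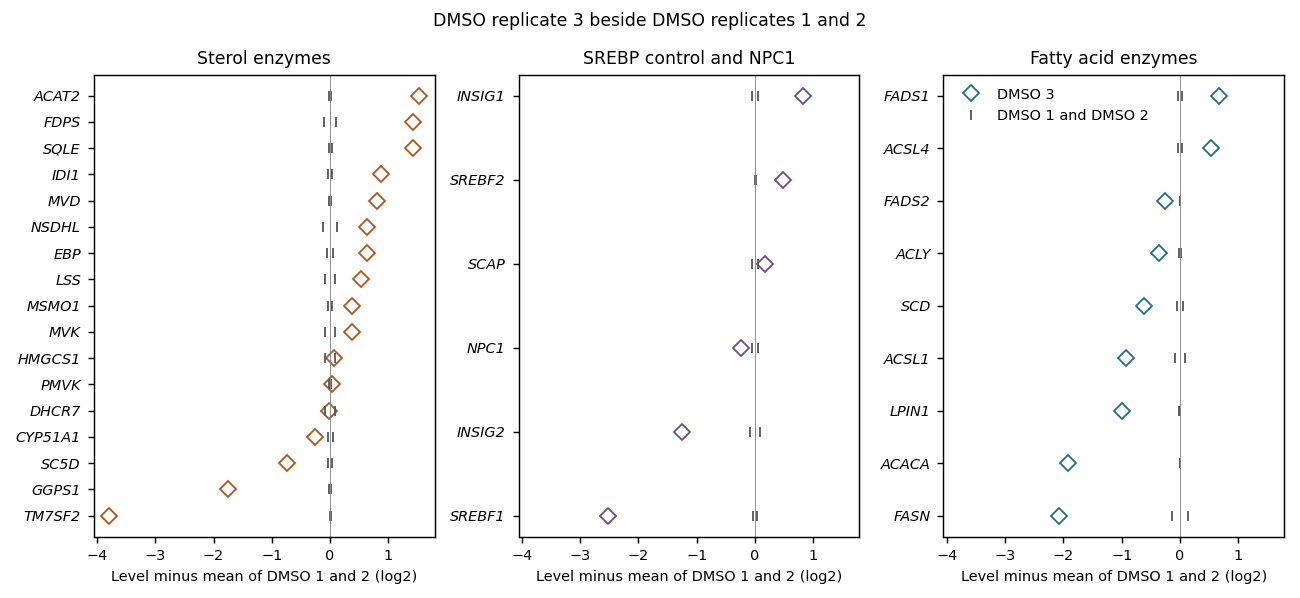
Level on each DMSO array minus the mean of DMSO replicates 1 and 2 (log2, horizontal axis) for each measured member; diamonds are DMSO replicate 3 and ticks DMSO replicates 1 and 2. The diamonds run from -3.79 for TM7SF2 to 1.53 for ACAT2, outside the ticks for most genes.

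Of the other lipid genes, none passed the test in limma in any of 5 lists. At an unadjusted p under 0.05, further SREBP targets had 2 higher and 2 lower, SREBP processing 0 and 2, LXR and storage 0 and 2, fatty acid oxidation 0 and 3, and glycerolipid synthesis 0 and 1, against 7.7% higher and 12.4% lower among genes kept. Among 11 measured further SREBP targets the median was 0.06, and ME1, the malic enzyme that supplies NADPH, stood at 10.29 and 10.24 with celastrol, against 9.02 and 9.21 with DMSO. Its change of 1.15 (SE 0.0864) missed the threshold with an adjusted p of 0.0583 in limma. The retinol dehydrogenase RDH11 had -0.34. Among 8 genes of SREBP processing and sterol sensing, 0 lay above and 5 below DMSO on both arrays, against 16.4% and 26.5% of genes kept, with a median of -0.09. MBTPS2, the Golgi protease that makes the second cut in SREBP, was at 5.82 and 5.86 with celastrol, against 6.17 and 6.42 with DMSO, a change of -0.45 (adjusted p = 0.174 in limma), and ERLIN2 had -0.11. Among 8 LXR and sterol storage genes the median was 0.01. MYLIP, an LXR target that degrades lipoprotein receptors, was dim, at 4.94 and 4.80 with celastrol, against 5.66 and 6.22 with DMSO, a change of -1.07 (adjusted p = 0.157 in limma), and LPCAT3 had -0.27.

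Fatty acid oxidation genes lay mostly on the other side of 0 from the synthesis genes. Of 18 measured, 15 had changes below 0, against 4559 of the 8108 genes kept. For 13 both celastrol arrays lay below both DMSO arrays, against 26.5% of genes kept. The median was -0.11, against -0.02 over genes kept, and 0 were called. CPT2, the inner carnitine palmitoyltransferase, stood at 7.94 and 8.02 with celastrol, against 8.52 and 8.52 with DMSO. The celastrol values were lower by more than the spread within either group, with a change of -0.54 (SE 0.0413, adjusted p = 0.0583 in limma). CPT1A, which controls entry of fatty acids into mitochondria, had 9.47 and 9.49 with celastrol, against 9.98 and 9.88 with DMSO, a change of -0.45 (SE 0.0496, adjusted p = 0.0788 in limma). With DMSO replicate 3 included, where CPT1A stood at 6.92, the median of the list was 0.22. Among 4 glycerolipid synthesis genes the median was -0.07, with AGPAT1 at -0.13 and LPIN2, a paralog of LPIN1, at -0.28 (95% interval -0.64 to 0.09). Luminal markers had a median of -0.12, leukocyte markers -0.000505 and fibroblast markers -0.03, with TMPRSS2 the 1 called among them, at -1.08.

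**Figure D5:**
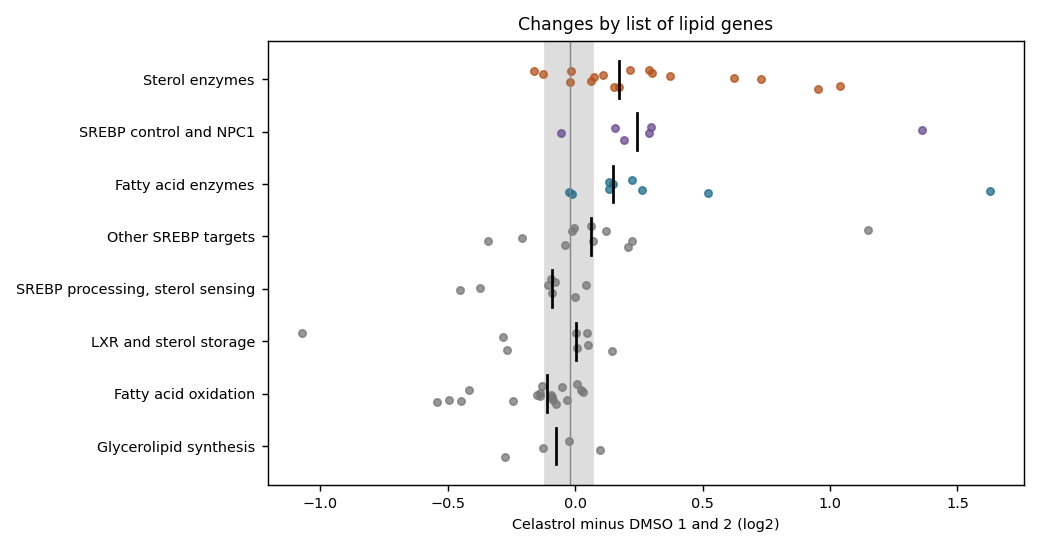
Changes of single genes (points, log2, horizontal axis) in the 3 groups of members (coloured) and in 5 further lists of lipid genes (grey); black bars are list medians, and the shaded band spans the quartiles of the 8108 genes kept, -0.12 to 0.07. Fatty acid oxidation genes lie mostly left of 0, with a median of -0.11, and ME1 stands alone at 1.15 among the further SREBP targets.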

How the data were processed

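RNA was extracted with Trizol and hybridised as biotinylated cRNA to Affymetrix arrays, as the labels' protocols say. Linear intensities, 1 for each probe set on each array, were deposited by the authors after RMA, per the submitters' processing notes. The RMA version is not given in the sources here. Groups follow the titles, since the description names celastrol for all samples. Values were used as log2(value + 1) as they stood. The platform annotation gives 1 gene for 19724 of the 22215 probe sets, and the one with the highest mean over all 5 arrays stands for a gene. The dimmest 40% by that mean were left out, which kept 13329 probe sets and 8108 genes. limma 3.58.1 in R 4.3.3 (lmFit, eBayes, two-sided) was fitted to celastrol replicates 1 and 2 and DMSO replicates 1 and 2, with p-values adjusted (Benjamini-Hochberg) across the kept probe sets and a threshold of 0.05, and was tested on simulated data. A single value compared by exact permutation could not go below p = 0.333. Between 17.1% and 19.3% of probe sets had identical values in pairs of the 4 arrays, and 4 of the 32 measured members had such ties within a group. The members, gene lists, filter and motifs were chosen with earlier results of these data known. Genes shown array by array are those called, then the largest changes up to 4 an arm, and all 6 control genes; of other lists the 2 of smallest p. PMVK and ACSL4 array values and TMPRSS2 were added after their values were seen.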

Additional observations from a re-analysis of the deposited data

Results flagged for a closer look

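Outside the probe sets used, 2 name a member together with another gene, and on both the celastrol arrays lay above DMSO replicates 1 and 2. The probe set of HSD17B7, a sterol ketoreductase, and its pseudogene HSD17B7P2 stood at 8.47 and 8.29 with celastrol, against 7.84 and 7.89 with DMSO, a change of 0.52 (SE 0.0777, adjusted p = 0.107 in limma). The probe set of LSS and PCM1 had a change of 0.12 (adjusted p = 0.397 in limma). Transcripts of either gene on these probe sets cannot be told apart.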

How the results depend on the processing

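Of the 3 members called higher, INSIG1, LPIN1 and MSMO1, all 3 were also called with the filter on the mean of the 4 arrays, log2(value + 16), a variance trend, robust variance or the probe set brightest on the 4 arrays. The count was 0 without a filter, 0 on all 5 arrays and 0 when any 1 array was left out (fits with 1 array in an arm, assumed to vary like the other arm), 7 after quantile normalization (adding ACSL1, HMGCS1, IDI1 and SQLE), 6 after median centring and 6 after cyclic loess (each without ACSL1), and 5 for the mean of all probe sets of a gene (adding IDI1 and SQLE). No member was called lower in any of these settings. Leaving out an array left changes of 1.31 to 1.40 for INSIG1, 1.00 to 1.08 for MSMO1 and 1.59 to 1.66 for LPIN1. Over all genes the calls ran from 0 to 272. The main fit did not pair arrays by replicate number. Over all probe sets, r was -0.0197 between the differences of replicates 1 and 2 in the groups. This cannot show whether replicates of the same number were handled together. With the replicate block 0 members and 0 genes were called by limma, against 12 members and 1353 genes at an unadjusted p under 0.05.

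The sterol median was 0.15 on all 5 arrays, 0.20 after quantile normalization, 0.19 after median centring, 0.20 after cyclic loess, 0.16 with log2(value + 16), 0.21 for the mean of probe sets, and 0.15 to 0.20 with 1 array left out. The fatty acid median was 0.47 on all 5 arrays, 0.18 after cyclic loess and 0.13 to 0.18 with 1 array left out. Sterol minus fatty acid median was -0.32 on all 5 arrays, 0.0829 for the mean of probe sets and -0.0115 to 0.0456 with 1 array left out.

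Members not called changed sign as follows. On all 5 arrays the changes were -0.11 for FDPS, -0.0513 for MVK, -0.00446 for LSS, 1.14 for TM7SF2, -0.40 for ACAT2, 0.57 for GGPS1, 0.79 for SREBF1, -0.00281 for SREBF2, 0.10 for ACLY, 0.63 for ACACA, -0.0917 for FADS1 and -0.0478 for ACSL4. EBP was 0.0132 after quantile normalization, 0.00241 after median centring, 0.0130 after cyclic loess, 0.0251 for the mean of probe sets, and -0.0725 to 0.0356 with 1 array left out. In the same order GGPS1 was 7.16e-05, 0.00398, 0.0149, 0.11, and -0.0486 to 0.0148. ACACA was 0.00813 after median centring and 0.0173 after cyclic loess, and ACLY 0.00735 after cyclic loess and 0.00937 for the mean of probe sets. With 1 array left out SC5D ran from -0.00488 to 0.13 and MVK from -0.0173 to 0.16. The cause of these moves was not tested. ACSL4 was too dim to pass the filter and has no adjusted p with it.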
